A study of Mus musculus with 2 samples.

Results

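The genes described here are the ligands and receptors of the classical axon guidance systems: semaphorins with their plexin and neuropilin receptors, ephrins with Eph receptors, Slits with Robos, and netrins with Dcc and the Unc5 receptors. They were chosen by symbol, as every gene whose symbol starts with one of these family names and that has at least 1 protein-coding transcript, and not by any measured value. The rule gave 72 genes of the 55536 mouse genes in the gene table. Of these, Unc50 (a Golgi membrane protein) and Unc5cl match the rule but were not counted as netrin receptors. This leaves 70 guidance genes, 37 ligands and 33 receptors.

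The data are total RNA-seq of hippocampal tissue of 5xFAD/CAST mice, all female and between 8 and 10 months old, a cross of the 5xFAD line with the wild-derived CAST strain. The 5xFAD line expresses mutant human APP, as found in familial Alzheimer disease, from transgenes under the mouse Thy1 promoter, which is active in neurons. The 2 libraries are biological replicates of 1 group, both carry the transgenes, and no other group was analysed here. Both replicates carry the same donor record, so the SDs given here measure the spread between these samples and may be partly technical. Replicates 1 and 2 held 27682992 and 32169915 expected counts on mouse genes. Levels are TPM values of the gene table (transcript abundance scaled by transcript length and library size), given as mean ± SD over n = 2 libraries, and coordinates are those of mm10 with GENCODE M21.

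Axon guidance cues are secreted or membrane-bound proteins that attract or repel growing axons through receptors on the growth cone. In the adult hippocampus the same families act at synapses and dendritic spines, in the layering of inputs, in the migration of newborn neurons and in contacts between neurons and glia. Semaphorins signal through plexins, with neuropilins as co-receptors for most of the secreted class 3 members. Ephrins and Eph receptors are both bound to the membrane, so that a ligand can also signal back into its own cell. Slits repel through Robo receptors, and netrins attract through Dcc or repel through Unc5 receptors.

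Markers of hippocampal neurons were present. All 8 pan-neuronal, all 8 CA pyramidal and all 8 dentate granule markers were at 1 TPM or more in each library. That level was also reached by 60.2% of nuclear protein-coding genes, and no markers of other brain regions were examined. The tissue label was therefore not tested. The libraries differed in other markers. Summed TPM of 8 choroid plexus markers was 454 in replicate 1 and 158 in replicate 2, of which Ttr alone gave 426 and 146. The sum of 8 oligodendrocyte markers was 1966 and 1601. None of these markers was listed at 0. In bulk tissue fewer cells of a type and less RNA per cell cannot be told apart, for any gene below.

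Most of the guidance genes were present in this adult tissue. Both libraries gave 1 TPM or more for 68 of the 72 genes (94.4%), here called detected, beside 27.7% of all mouse genes and 60.2% of nuclear protein-coding genes. The genes below that level were Sema3a, at 0.99 and 1.05 TPM in replicates 1 and 2, Epha2 at 1.03 and 0.82, Unc5cl at 0.28 and 0.55, and Efna4 at 0.20 and 0.51. Without Unc50 and Unc5cl, 35 of the 37 ligands and 32 of the 33 receptors were detected. The median level of the 72 genes was 13.0 TPM, beside 4.24 for all nuclear protein-coding genes. Among detected genes alone the medians were 14.3 and 15.3 TPM. These counts and medians describe the set, and no test was run on it. Together they took 0.460% of the counts on mouse genes. Some counts are less certain because exons overlap another gene: on the same strand for Ntng2, Nrp1, Sema4a, Plxnc1 and Ntn3, and on the opposite strand for Epha6, Unc5a, Plxnb1, Plxna4, Plxna1, Efna3, Unc5c, Epha10, Ephb1, Sema4c, Ntn5, Ntn3, Ephb4 and Efna4.

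The order of levels was led by receptors. Mean TPM was at least 50 for 6 genes, from 10 to 50 for 35, from 1 to 10 for 28 and under 1 for 3. The 6 highest were Epha4, Slit1, Epha7, Epha6, Unc5a and Efnb3. Neighbours in the order were often not separated: of 71 neighbouring pairs, 21 had both libraries of the higher gene above both libraries of the lower gene. Epha4 stood above Slit1 and Slit1 above Epha7 in this way, whereas Epha7 and Epha6 overlapped.

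**Figure D1:**
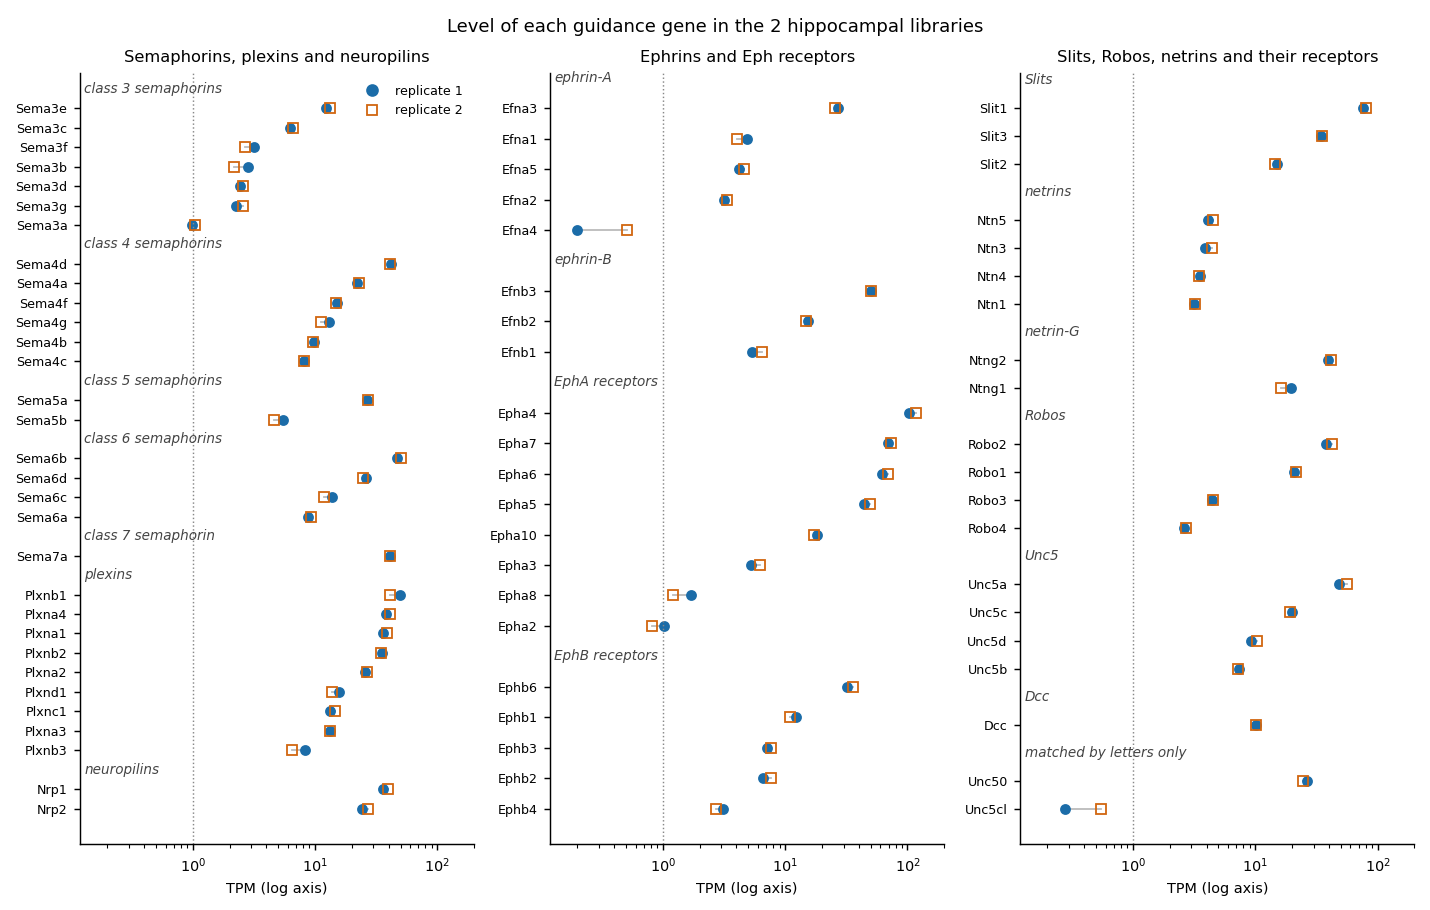
Level of each of the 72 genes in TPM on a log axis, grouped by family, with filled circles for replicate 1, open squares for replicate 2 and a dotted line at 1 TPM. Epha4 stands furthest to the right in both libraries, the secreted class 3 semaphorins and the netrins lie mostly below 10 TPM, and Efna4 and Unc5cl lie below 1 TPM in both.

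Ligand and receptor levels were balanced in some systems and far apart in others. The 20 semaphorins summed to 308 ± 0.184 TPM and their 11 receptors to 296 ± 0.707 TPM, a receptor sum 0.961 ± 0.00172 times the ligand sum. Ephrin-B ligands summed to 71.5 ± 0.431 TPM and EphB receptors to 62.8 ± 2.72 TPM. In the ephrin-A system the 5 ligands summed to 38.8 ± 1.29 TPM and the 8 EphA receptors counted here to 320 ± 21.9 TPM, which is 8.26 ± 0.838 times as much. Epha4 (110 ± 10.2 TPM), which also binds ephrin-B ligands, was counted in the ephrin-A system only, and both comparisons depend on that placing.

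Netrin receptors also outweighed their secreted ligands, at 98.8 ± 5.63 TPM for Dcc and the Unc5 genes against 15.2 ± 0.573 TPM for 4 netrins, a ratio of 6.51 ± 0.125. The Slit system went the other way. Its 3 ligands summed to 128 ± 4.00 TPM and its 4 Robo receptors to 68.5 ± 4.07 TPM, a ratio of 0.536 ± 0.0151. In a second deposited estimate from the same reads these sums were 119 and 81.5 TPM, nearer to each other. The SD does not cover that difference. Over all systems the receptor sum was 1.37 ± 0.0493 times the ligand sum. That ligand sum includes the 2 netrin-G genes (58.3 ± 0.622 TPM), whose receptors are not among the genes counted. Each of these ratios lay on the same side of 1 in both libraries.

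**Figure D2:**
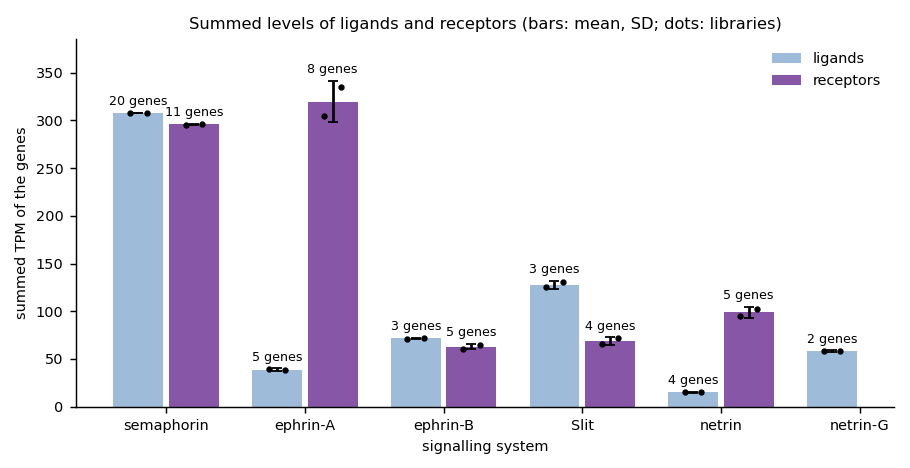
Summed TPM of the ligand genes and the receptor genes of each system, with bars for the mean of the 2 libraries, whiskers for the SD, dots for the libraries and the number of genes above each bar. The EphA receptors stand at 320 TPM above 38.8 TPM of ephrin-A ligands, and the netrin-G genes, which are membrane-anchored and bind other partners, have no receptor bar.

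Among the semaphorins the highest levels were those of membrane-bound members, and secreted class 3 members were mostly low. Class 3 members are diffusible repellents that bind neuropilins, and their median was 2.71 ± 0.191 TPM. Sema3e, which binds Plxnd1 without a neuropilin, led them at 12.3 TPM in replicate 1 and 13.2 in replicate 2. Sema3c followed at 6.23 and 6.66, and Sema3f, a ligand of Nrp2, at 3.18 and 2.66. Sema3a, the prototypic growth cone collapsing factor and a ligand of Nrp1, was the lowest of the class. Its 85 and 124 expected counts place it at the level used here for detection.

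Class 4 semaphorins are transmembrane proteins, and all 6 were detected. Sema4d, a ligand of Plxnb1, was read at 41.4 TPM in replicate 1 and 41.3 in replicate 2. Sema4a was read at 22.2 and 22.9, and Sema4f at 15.0 and 14.7. The other transmembrane classes were led by Sema6b at 46.4 and 50.8 TPM, Sema6d at 26.1 and 24.9, Sema6c at 13.9 and 11.9 and Sema5a at 26.6 and 27.0. Sema7a, the GPI-anchored semaphorin that acts through integrins and Plxnc1, was read at 40.7 and 40.9 TPM. The lower membrane-bound members were Sema4g (12.1 ± 1.27 TPM), Sema4b (9.77 ± 0.148), Sema6a (9.05 ± 0.304), Sema4c (8.11 ± 0.0707) and Sema5b (5.08 ± 0.601), all below the mean of Sema3e, 12.7 ± 0.658 TPM.

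All 9 plexins were detected, with a median of 26.2 ± 0.792 TPM. Plexins carry a cytoplasmic GTPase-activating domain for small GTPases of the Rap family. Plxnb1 was highest at 49.3 and 40.8 TPM in replicates 1 and 2, Plxna4 was read at 38.2 and 40.9, and Plxna1 at 36.2 and 39.1. The first pair overlapped, and so did Plxna4 and Plxna1. Plxnb3, known from oligodendrocytes in mouse brain, was lowest at 8.32 and 6.45.

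The neuropilins were both abundant, with Nrp1 at 36.1 and 39.5 TPM and Nrp2 at 24.2 and 27.1. Nrp2 is made with alternative membrane-spanning and cytoplasmic ends. The a end closes with a short motif for binding PDZ proteins that Nrp1 shares, and the b end does not. The last 60 coding bases of each end are shown because the 2 forms differ there, with the last 9 in capitals:
Nrp2-204, a end, chr1:62815575-62815634, plus strand: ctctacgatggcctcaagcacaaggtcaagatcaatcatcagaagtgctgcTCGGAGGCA
Nrp2-205, b end, chr1:62795927-62795986, plus strand: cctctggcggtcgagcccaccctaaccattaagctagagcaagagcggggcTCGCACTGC
Transcripts with the a end held 48.5% of the TPM on either end in replicate 1 and 52.5% in replicate 2, so both ends were present at about equal levels. The second transcript table, another estimate from the same reads, gave 49.7% and 52.6%. These transcript forms, and those of the other genes below, were chosen after their values had been seen.

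Ephrin-A ligands are held in the membrane by a GPI anchor. Efna3 was read at 27.3 and 25.4 TPM and the other 4 were low, with Efna1 at 4.87 and 4.06 and Efna5 at 4.17 and 4.59. Efna1, Efna3 and Efna4 lie next to each other on the minus strand of chromosome 3 with no coding gene between them. The gaps are 32.8 kb and 10.4 kb. Their mean levels were 4.47, 26.3 and 0.355 TPM, so the middle gene was high and both of its neighbours were low in both libraries. The promoters are printed to show these 3 starts beside levels that differ so widely.

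The sequences are those of RefSeq (GRCm38.p6), from 250 bases before to 50 after each start, minus strand. Capitals mark GGGCGG or CCGCCC, the GC box on either strand:
Efna1, chr3:89279596-89279895: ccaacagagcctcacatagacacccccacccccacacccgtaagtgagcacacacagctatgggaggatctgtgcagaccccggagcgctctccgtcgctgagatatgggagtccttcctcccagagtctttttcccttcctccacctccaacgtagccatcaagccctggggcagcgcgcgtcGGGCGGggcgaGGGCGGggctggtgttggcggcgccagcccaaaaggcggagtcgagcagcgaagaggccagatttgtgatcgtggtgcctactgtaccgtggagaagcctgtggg
Efna3, chr3:89322890-89323189: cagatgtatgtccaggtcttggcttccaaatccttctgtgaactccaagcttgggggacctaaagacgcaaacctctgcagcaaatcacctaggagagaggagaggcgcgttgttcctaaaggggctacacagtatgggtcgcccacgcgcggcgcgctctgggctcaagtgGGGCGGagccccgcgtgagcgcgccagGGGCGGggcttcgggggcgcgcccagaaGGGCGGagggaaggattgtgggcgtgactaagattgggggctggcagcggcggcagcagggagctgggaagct
Efna4, chr3:89337979-89338278: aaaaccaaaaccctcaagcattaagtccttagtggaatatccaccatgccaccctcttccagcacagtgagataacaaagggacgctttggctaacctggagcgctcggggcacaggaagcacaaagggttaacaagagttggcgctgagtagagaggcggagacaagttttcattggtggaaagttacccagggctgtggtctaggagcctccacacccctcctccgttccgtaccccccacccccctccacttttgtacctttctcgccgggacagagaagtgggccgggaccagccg
The GC box was found 2 times for Efna1, 3 times for Efna3 and 0 times for Efna4, with 20, 22 and 11 CG pairs. Of the 72 genes, 62 had a promoter in the table, and 72.6% of these held the GC box, beside 61.8% of promoters of detected coding genes and 35.7% of all promoters of this length. TATAAA on either strand was found in 2 of the 62. Its share was 6.88% among promoters of detected coding genes and 13.6% among all. A match of letters is a description and not a bound site.

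Ephrin-B ligands span the membrane and signal in both directions. Efnb3 was read at 50.6 TPM in replicate 1 and 50.5 in replicate 2, Efnb2 at 15.3 and 14.8, and Efnb1 at 5.39 and 6.45. The libraries of these 3 genes did not overlap.

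EphA receptors are tyrosine kinases for ephrin-A ligands, and 4 of them were among the 8 highest genes of the whole set. Epha4, at chr1:77367185-77515088 on the minus strand, was read at 103 TPM in replicate 1 and 117 in replicate 2. It also binds ephrin-B ligands and limits dendritic spines at contacts with astrocytes. Epha7 was read at 68.9 and 73.0 TPM, Epha6 at 61.7 and 69.96 and Epha5 at 44.5 and 49.3. Epha10, whose kinase domain lacks activity, was read at 18.3 and 17.3, and Epha3 at 5.26 and 6.22. Epha8 and Epha2 were at the bottom of the family at 1.47 ± 0.346 and 0.925 ± 0.148 TPM.

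The main coding transcripts of Epha4 have coding regions of the same length. Epha4-201 and Epha4-204 both have 2958 coding bases and were read at 63.4 ± 5.22 and 26.2 ± 1.72 TPM. By the second table they were read at 52.7 and 14.5 TPM on average. There Epha4-207, a target of nonsense-mediated decay, was read above Epha4-204, at 18.4 TPM. For Epha7 most of the coding TPM lay on transcripts that stop before the kinase domain. Epha7-201 has 17 coding exons and 2994 coding bases, whereas Epha7-202 and Epha7-204 have 10 coding exons and 1830 and 1878 coding bases. The short forms encode the ectodomain and the membrane span, and in the mouse neural tube such forms are known to turn repulsion into adhesion. The sequences show where the forms part, with 30 shared coding bases in lower case and the bases that follow in capitals:
Epha7-201, chr4:28947528-28947587, plus strand: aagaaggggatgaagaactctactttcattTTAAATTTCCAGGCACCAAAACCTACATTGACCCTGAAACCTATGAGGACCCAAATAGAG
Epha7-202, chr4:28946219-28946250, plus strand: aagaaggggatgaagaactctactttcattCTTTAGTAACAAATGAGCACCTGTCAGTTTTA
Epha7-204, chr4:28966523-28966602, plus strand: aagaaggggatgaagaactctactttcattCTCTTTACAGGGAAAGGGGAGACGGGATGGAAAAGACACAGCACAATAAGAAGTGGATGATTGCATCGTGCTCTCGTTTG
The coordinates are those of the capitals. For Epha7-201 the first 60 of 1196 bases are shown, and the short ends are shown to their last coding base.

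Epha7-202 was read at 24.5 TPM in replicate 1 and 30.8 in replicate 2, and Epha7-204 at 19.8 and 18.4. The full-length Epha7-201 was read at 9.83 and 12.01 TPM, and Epha7-203, which also has the full-length end, at 4.05 and 3.38. The full-length end thus held 23.9% and 23.8% of the coding TPM in the 2 libraries, and 26.0% in both by the second table. By expected counts, which also grow with transcript length, its share was 45.0% and 44.6%.

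EphB receptors bind the ephrin-B ligands and organise excitatory synapses. Ephb6, a family member without kinase activity, was highest at 31.9 and 35.8 TPM. Ephb1 was read at 12.2 and 10.9 TPM, Ephb3 at 7.11 and 7.61, Ephb2 at 6.55 and 7.65 and Ephb4 at 3.09 and 2.70. All 5 were detected, and the highest of them was the kinase-dead one in both libraries.

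Slits are large secreted repellents. Slit1, at chr19:41600257-41743665 on the minus strand, was read at 75.8 TPM in replicate 1 and 81.1 in replicate 2. Slit3 was read at 34.2 and 34.96, and Slit2 at 14.9 and 14.6. The 3 genes were separated in both libraries. Slit1 had 2 coding forms at like levels. Slit1-201 has 4593 coding bases and ends in the cystine knot typical of Slits, and Slit1-203 has 4374 and an end without it. Both are shown at the point where they part, with 30 shared bases in lower case:
Slit1-201, chr19:41600630-41600689, minus strand: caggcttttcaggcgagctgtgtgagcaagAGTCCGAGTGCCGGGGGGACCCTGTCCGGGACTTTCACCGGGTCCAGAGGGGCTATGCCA
Slit1-203, chr19:41601472-41601488, minus strand: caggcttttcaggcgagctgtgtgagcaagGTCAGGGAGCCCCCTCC
The capitals are the first 60 of 236 bases of the long end and all 17 of the short end. The long end held 48.9% of the TPM in replicate 1 and 54.3% in replicate 2, and 46.7% and 49.2% by the second table. Which form was higher changed between libraries and between tables.

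Slit2 carried 2 very short exons, shown in capitals with 20 coding bases on each side because their inclusion was read in opposite proportions:
Slit2-216, chr5:48191003-48191014, plus strand: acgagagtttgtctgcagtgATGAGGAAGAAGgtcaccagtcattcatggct
Slit2-217, chr5:48220967-48220990, plus strand: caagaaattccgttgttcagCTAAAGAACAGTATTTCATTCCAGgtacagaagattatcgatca
The 12-base exon was included in 64.9% and 71.2% of the coding TPM across it, in replicates 1 and 2. The 24-base exon was included in 14.8% and 20.1%. The second table gave 73.0% and 78.3% for the 12-base exon, and 21.5% and 20.6% for the 24-base exon, so the first was mostly in and the other mostly out in both tables.

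Robos are the Slit receptors. Robo2 was read at 37.7 TPM in replicate 1 and 42.7 in replicate 2, and Robo1 at 20.9 and 21.4. Robo3, a receptor known to lower Slit sensitivity in commissural axons, was read at 4.41 and 4.54, and Robo4, known from endothelial cells, at 2.60 and 2.71. Robo1 and Robo2 lie 846 kb apart on chromosome 16 with no coding gene between, and Robo3 and Robo4 lie 0.554 kb apart on chromosome 9. The chromosome 16 pair was read above 20 TPM and the chromosome 9 pair below 5 TPM in both libraries.

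Secreted netrins were low, between 3.19 and 4.32 TPM. Ntn5 was read at 4.14 and 4.49 TPM in replicates 1 and 2, Ntn3 at 3.91 and 4.42, and Ntn4, a netrin of basement membranes, at 3.52 and 3.45. Ntn1, the prototypic netrin, was read at 3.18 and 3.20 TPM. The netrin-G genes, whose GPI-anchored products act at synapses and bind NGL proteins in place of Dcc, were higher. Ntng2 was read at 39.2 and 41.5 TPM, and Ntng1 at 19.6 and 16.4.

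Netrin receptors were led by Unc5a, at chr13:54949411-55006018 on the plus strand, with 48.2 TPM in replicate 1 and 55.9 in replicate 2. Unc5c was read at 19.8 and 19.2, Unc5d at 9.28 and 10.4, and Unc5b at 7.40 and 7.21. Dcc, the attractive netrin receptor, was read at 10.1 in both libraries. Unc5 proteins are dependence receptors with a cytoplasmic death domain, and Unc5a alone exceeded the sum of the 4 secreted netrins.

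Most Unc5a transcripts lacked a coding exon of 168 bases that encodes a thrombospondin type 1 repeat of the ectodomain, and Unc5c had an optional exon of 57 bases. The exons are shown in capitals with 20 coding bases on each side:
Unc5a-201, chr13:54997193-54997360, plus strand: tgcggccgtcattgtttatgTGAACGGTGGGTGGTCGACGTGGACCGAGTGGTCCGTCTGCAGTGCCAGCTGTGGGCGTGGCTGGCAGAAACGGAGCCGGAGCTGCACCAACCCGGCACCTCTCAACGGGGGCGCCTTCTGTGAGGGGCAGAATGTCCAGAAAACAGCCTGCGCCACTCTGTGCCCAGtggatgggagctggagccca
Unc5c-201, chr3:141786857-141786913, plus strand: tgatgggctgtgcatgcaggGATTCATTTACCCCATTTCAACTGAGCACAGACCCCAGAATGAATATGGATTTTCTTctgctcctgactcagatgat
Unc5a-202, without the exon, was read at 39.7 TPM in replicate 1 and 46.5 in replicate 2, and Unc5a-201, with it, at 6.62 and 6.68. The exon was included in 14.3% and 12.4% of the coding TPM across it, and in 21.2% and 17.5% by the second table. The Unc5c exon was included in 29.1% and 36.1%, and in 30.5% and 39.2% by the second table. By expected counts it was included in 14.0% and 18.3%. Skipping was the more abundant form of both genes in both libraries and both tables.

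In 2 further genes forms with and without a coding stretch were both present. Sema6d-206 holds 225 coding bases from 2 exons that other forms lack, and it made up 47.0% and 47.7% of the coding TPM across that stretch. The second table gave 46.2% and 41.8%. For Ntng1 a stretch of 303 coding bases was included in 53.4% of the TPM in replicate 1 and 38.5% in replicate 2, and in 57.6% and 42.6% by the second table. The Ntng1 libraries lay on opposite sides of an equal split in both tables. This share compares Ntng1-202 with Ntng1-208 alone, and by expected counts it was 24.1% and 14.8%.

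**Figure D3:**
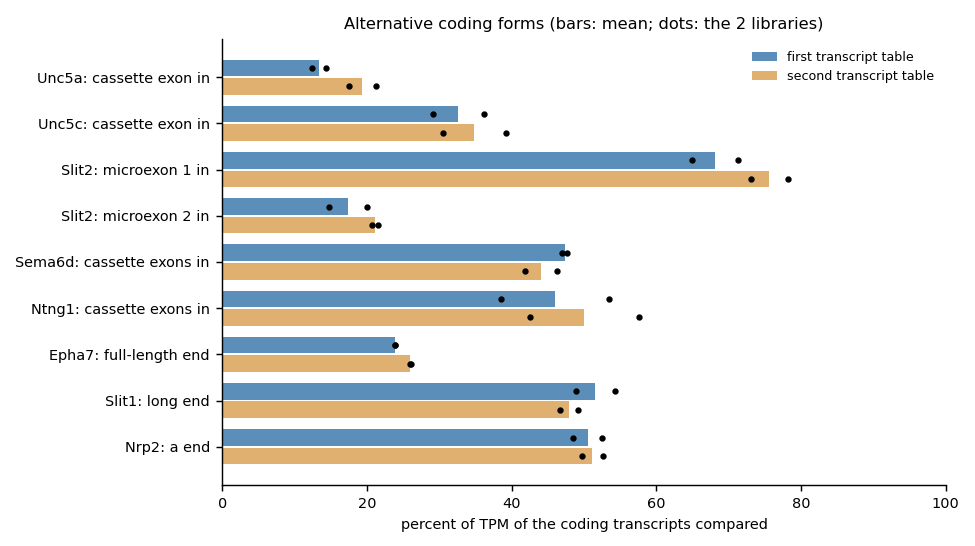
Share of the coding TPM on the named form of 8 genes, out of the coding transcripts compared, with bars for the mean of the 2 libraries in the first (expected count) and second (estimated count) transcript tables and dots for the libraries. Inclusion of the Unc5a exon is lowest at 13.4 ± 1.34% and that of the 12-base Slit2 exon highest at 68.1 ± 4.49% in the first table.

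Across the whole set 452 transcripts were annotated, of which 229 are protein-coding, 121 retain an intron, 67 are other processed transcripts and 35 are targets of nonsense-mediated decay. Protein-coding transcripts held 82.6 ± 0.984% of the TPM and 93.2 ± 0.398% of the counts. Retained-intron transcripts held 9.91 ± 0.806% of the TPM. Per gene, the median share of TPM on protein-coding transcripts was 83.9% for the 68 detected genes, beside 88.0% for all detected nuclear protein-coding genes. The genes are long, with a median span of 57.5 kb beside 25.7 kb and a median longest coding length of 2859 bases beside 1413, while both sets have a median of 5 annotated transcripts.

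The lowest coding shares were found for Plxna3 (43.3 ± 0.529%), Sema6c (43.6 ± 2.93%), Sema3f (44.2 ± 11.2%), Ntng2 (49.6 ± 1.93%), Sema3b (50.3 ± 1.52%) and Robo3 (53.0 ± 12.9%). Plxna3 shows how the measure works. By counts its coding share was 83.9%. Its 5 main retained-intron transcripts are 735 to 984 bases long, beside 6943 for the coding Plxna3-201. For 4 of the 68 detected genes the most abundant transcript was not protein-coding, beside 7.76% of detected coding genes. These were Ntng2-211 and Sema3b-206, targets of nonsense-mediated decay, and Epha5-207 and Sema4a-211, which retain an intron.

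Ntng2-211 was read at 14.5 TPM in replicate 1 and 18.0 in replicate 2, and the coding Ntng2-204 at 15.8 and 16.3, so the order of these forms differed between libraries. Epha5-207 was read at 9.57 and 10.5 TPM, ahead of Epha5-202 at 8.70 and 7.79. The transcript tables named different most abundant transcripts for 10 of the 68 genes, beside 17.1% of detected coding genes. In order of level the first 6 were Slit1, Epha5, Robo2, Sema6d, Sema4a and Ntng1. For Robo2 the first table gave the coding Robo2-211, at 9.03 ± 1.12 TPM, and the second gave Robo2-207, a processed transcript of 430 bases, at 23.3 ± 3.71 TPM.

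Summed to genes, the 2 quantifications were near each other. Their TPM lay apart by at least 1.25-fold for 4 of 68 genes, beside 10.4% of detected coding genes that averaged 100 counts or more. The ratio of the second table to the gene table was lowest for Plxnb2 (0.712), Sema5b (0.790), Sema5a (0.840), Sema3g (0.841) and Sema4g (0.854). It was highest for Robo2 (1.35), Sema4f (1.28), Sema3d (1.19), Plxnd1 (1.17) and Sema4a (1.17). For Robo2 this is the difference between 40.2 ± 3.53 TPM (gene table) and 54.3 ± 4.23 TPM (second table), with no overlap of the 2 tables.

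No guidance gene with 100 counts or more differed by 2-fold between the replicates. Log2 ratios are replicate 2 over replicate 1 of TMM-scaled counts (CPM), with no test since 1 library stands on each side. A 2-fold difference was passed by 1 of 72 genes, beside 2.66% of all genes that averaged 10 counts or more. Above an average of 100 counts it was passed by 0 of 69 genes, beside 0.29%. The gene past 2-fold was Efna4, with 6 and 17 counts and a log2 ratio of 1.08. Its 95% counting interval ran from -0.11 to 2.93. In all, 43 genes were higher in replicate 2 and 29 lower, and their median log2 ratio was 0.06. Over all genes it was 0.00. Counting intervals lay above 0 for 20 of the 72 genes and below 0 for 9. Of all genes averaging 10 counts or more, 13.8% lay above and 12% below. These intervals narrow with more counts: 69 of the 72 genes averaged 100 counts or more, beside 13095 of the 18897. The shares therefore differ in depth, and they were not compared at equal counts. The median absolute log2 ratio of detected genes was 0.11, beside 0.09 for detected coding genes.

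Lower in replicate 2 were Epha8 with 155 and 126 counts (log2 ratio -0.50), Sema3f with 139 and 115 (-0.47) and Plxnb3 with 937 and 796 (-0.44). Their counting intervals, which cover counting error only, lay below 0. Sema3b (138 and 128 counts, -0.31) and Efna1 (132 and 126 counts, -0.27) followed, with intervals that reached above 0. Oligodendrocyte markers moved with these genes: 8 of 8 fell below their replicate 1 value (median log2 ratio -0.28). So did 8 of 8 choroid plexus markers (median -1.56), 7 of 7 measured ependymal markers (-1.11) and 8 of 8 astrocyte markers (-0.08). Microglial markers were lower for 7 of 8 genes (-0.14), oligodendrocyte precursor markers for 7 of 8 (-0.03), fibroblast and meningeal markers for 5 of 8 (-0.13), and endothelial and mural markers for 4 of 8 each (-0.02 and 0.03). Their part in the result was not tested.

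Higher in replicate 2 were Sema3a with 85 and 124 counts (0.33), Plxnd1 with 1146 and 1563 (0.24), Unc5d with 1222 and 1643 (0.22), Efnb2 with 990 and 1323 (0.21) and Slit2 with 1640 and 2171 (0.20). The interval of Sema3a reached below 0 and the other 4 did not. Pan-neuronal markers exceeded their replicate 1 value for 8 of 8 genes (median log2 ratio 0.13). The same held for 7 of 8 CA pyramidal markers (0.13), 7 of 8 dentate granule markers (0.10) and 6 of 8 interneuron markers (0.09), with the remaining genes lower. Their part in the result was not tested.

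Counts and TPM did not always point the same way. The count ratio and the TPM ratio had opposite signs for 15 of the 69 genes averaging 100 counts or more, or 21.7%, beside 16.6% of all genes at that level. Plxnd1 was one, with TPM of 15.8 in replicate 1 and 13.7 in replicate 2 beside higher counts. Efnb2 and Slit2 were others, at 15.3 and 14.8 TPM and at 14.9 and 14.6 TPM. TPM divides by an effective length that depends on which transcripts are counted, and that length was estimated for each library on its own.

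**Figure D4:**
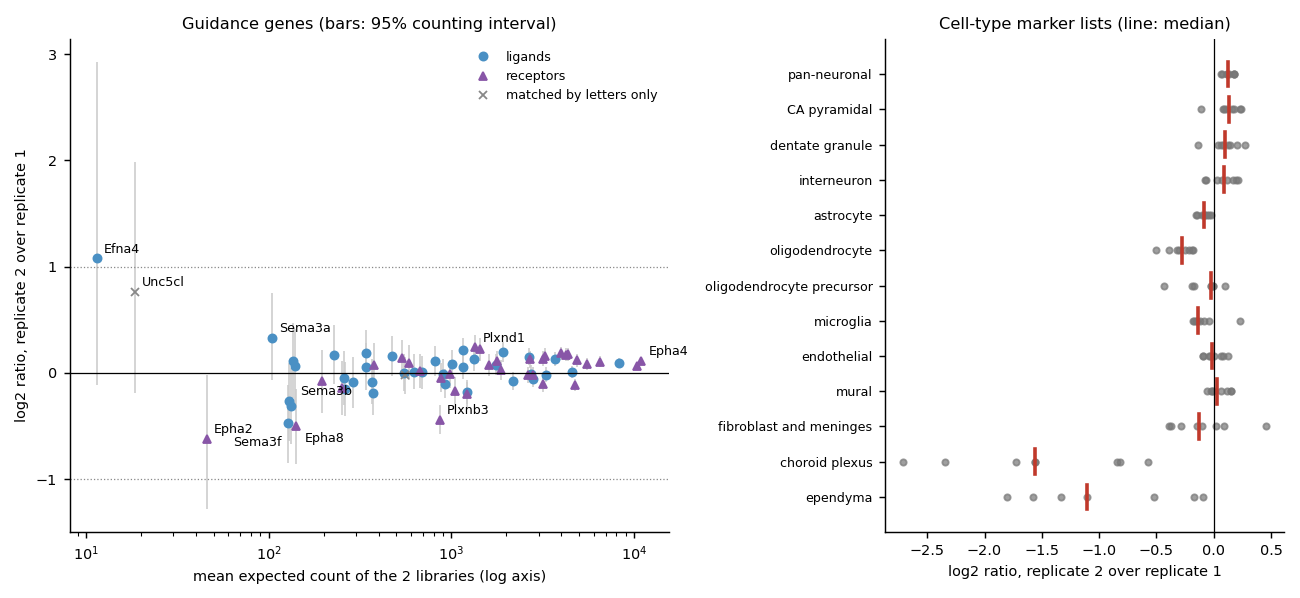
Left, log2 ratio of replicate 2 over replicate 1 of each of the 72 genes against its mean expected count on a log axis, with 95% counting intervals and dotted lines at 2-fold. Right, the same ratio for the genes of 13 marker lists, with a line at each median; the guidance genes above 100 counts lie between -0.50 and 0.33, and the choroid plexus and ependymal markers reach further down.

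Genes that work beside these families were present too. Of 20 other cues and co-receptors 19 were detected, led by the adhesion molecules Nrcam at 205 and 220 TPM in replicates 1 and 2, Cntn1 at 125 and 135 and the syndecan Sdc3 at 69.7 and 74.5. Draxin, a secreted antagonist of netrin signalling, was read at 0.10 TPM in both. All 39 downstream effectors were detected. The highest were Chn1, a Rac GTPase-activating protein that acts below EphA4, at 564 and 627 TPM, the actin-severing cofilin gene Cfl1 at 529 and 586, and Dpysl2 (CRMP2), a mediator of Sema3a signals, at 254 and 273. Between replicates 15 of the 20 cues and 22 of the 39 effectors were higher in replicate 2, with median log2 ratios of 0.07 and 0.03.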

How the data were processed

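Total RNA-seq of hippocampal tissue was analysed as 1 group of 2 replicates, numbered as in the labels. Per the file headers, the genome build is mm10 and the annotation GENCODE M21. For genes (the gene table) and for transcripts (the first transcript table) the authors deposited expected counts with TPM, beside a posterior SD of each count, treated as a score. A second transcript table deposited by the authors holds estimated counts with TPM. Whether counting used strand, and by which programs, is not given in the sources used. Reads of CAST alleles were counted on mm10, and the effect on single genes was not tested.

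The totals per library were 27816845 and 32316737 expected counts, of which 0.481% and 0.454% lay off mouse genes and stayed out of library sizes. Counts of 0 allow up to 3 counts. Floors and intervals cover counting error only. Exons of 5 of the 72 genes overlap another gene on the same strand and those of 14 on the opposite strand, and their counts are less certain. A gene that matches the rule is not reported here.

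Expected counts were rounded, then TMM-scaled by edgeR 4.0.16 under R 4.3.3. Ratios used CPM with a prior count of 2, on all genes averaging 10 counts or more, a step checked on simulated counts. DESeq2 1.42.0 size factors, library size and spike-in totals were alternatives. Counting intervals are exact binomial at 95%. Python 3.11.15 with pandas 2.3.3, numpy 2.4.6, scipy 1.17.1 and matplotlib 3.10.9 made the tables and figures. Promoters were matched by symbol, taking the start nearest to that of the most abundant coding transcript. Coding stretches were read from GENCODE M21 transcripts.

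The symbol rule uses no measured value, but the genes and lists were chosen with earlier results of these data known. Named in full are the 3 highest genes of each subfamily, the 5 highest and 5 lowest ratios at 100 counts or more, the 6 lowest coding shares, the 5 furthest apart each way between tables and the 3 highest of each pathway list. With no second group, no hypothesis test was run on the data.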

Additional observations from a re-analysis of the deposited data

How the results depend on the processing

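Detection depended little on the threshold: 67 to 71 of the 72 genes were detected under 7 alternatives, beside 68. The median level was 12.3 TPM by the second table and 29.6 TPM when TPM was rescaled over nuclear protein-coding genes, beside 13.2 TPM as the mean of the medians of both libraries, and 13.2 to 13.3 TPM with 1 library left out. No gene passed 2-fold between replicates at a mean count of at least 100 or with a prior count of 5 (0 genes in each), beside 1 gene under the other 6 alternatives. The median share of TPM on protein-coding transcripts was 78.2% by the second table, beside 83.9%. Of the 11 sums of ligands or receptors, 9 moved in the second table by more than the SD between libraries and 2 by less. Between 3 and 6 genes had a most abundant transcript that is not protein-coding, beside 4, and the median log2 ratio between replicates ran from 0.05 to 0.13, beside 0.06. By the second table the 10 ratios of single genes named above stayed in their counting interval, and other scalings shift all genes alike. With 2 libraries of 1 group, nothing here separates the effect of the transgenes, the strain or the age. No paired analysis was possible because there is 1 group.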

Other observations

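Antisense genes named after Plxna4 match the symbols but have no coding transcript. Plxna4os1 was read at 0.16 TPM in replicate 1 and 0.14 in replicate 2, with 6 counts in each. Plxna4os2 and Plxna4os3 had 0 counts in both libraries, which allows up to 3 counts each.

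Several guidance genes lie near each other on a chromosome. Sema3d, Sema3a and Sema3e follow each other on chromosome 5 with gaps of 536 and 423 kb, at mean levels of 2.51, 1.02 and 12.7 TPM. Sema3b and Sema3f lie 72.3 kb apart on chromosome 9, and both were lower in replicate 2. Ephb2 and Epha8 lie 93.4 kb apart on chromosome 4, at 7.10 and 1.47 TPM.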
